A study of Macaca mulatta with 4 samples.

Results

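Clustered AG-only bins are 10-kb stretches of the rhesus macaque (Macaca mulatta) autosomes. They carried H3K27me3 CUT&RUN coverage in both AG libraries and had none in either GG library. Each lay in a 1-Mb window that held 4 or more such bins. AG labels androgenetic morulae, whose nuclear genome comes from the father only, and GG labels gynogenetic morulae, whose nuclear genome comes from the mother only. Each group had 2 libraries, and the labels give no treatment, sex or embryo number. The sample titles name ChIP-seq, whereas the series title and the extraction protocol describe CUT&RUN, which is the name used here. Bins were counted from position 0 of each of the 20 autosomes on rheMac8. A bin was AG-only with at least 450 covered bases in each AG library and 0 in both GG libraries, and it was a member where its 1-Mb window held 4 or more AG-only bins. By this rule 532 of 267367 bins were members. They were chosen by the covered bases of all 4 libraries, so the contrast of AG with GG inside members is a description and carries no test.

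H3K27me3, trimethylation of lysine 27 on histone H3, is deposited by the Polycomb repressive complex PRC2 and marks silent chromatin, often in broad domains over developmental genes. Through cell division it can be passed on by PRC2 itself, which binds the mark it writes. In mouse embryos maternal H3K27me3 inherited from the oocyte can silence the maternal copy of some genes, a form of imprinting that does not need DNA methylation. Embryos with a single parental genome show on which parental genome a mark lies without the need for sequence variants. CUT&RUN maps such a mark by tethering micrococcal nuclease to an antibody and sequencing the DNA that is released.

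On the autosomes the AG libraries had 42157 and 44129 intervals covering 0.497% and 0.635% of the sequence in replicates 1 and 2. The GG libraries had 337216 and 266183 intervals covering 7.80% and 7.23%. Intervals are stretches of bases under tags on called islands, without tag counts, so sequencing depth is unknown. The islands were called with a window and gap of 200 bp in AG and with a window of 300 bp and a gap of 1200 bp in GG. Calling settings and parental origin therefore cannot be told apart. A GG value of 0 in a bin means that no tag on a called GG island fell there, and H3K27me3 below the calling threshold may still be present. The labels do not say whether the replicates of a group are separate collections of embryos. With 2 libraries against 2, no exact two-sided permutation test could give a p under 0.333. Genes and sequence were not analysed here, since no annotation or genome of rheMac8 was used.

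Members were a small and unevenly placed part of the AG pattern. Of all bins, 3950 (1.48%) were marked, with at least 450 covered bases, in both AG libraries and 27401 (10.2%) in both GG libraries. AG-only bins numbered 1213 (0.454% of all bins), or 30.7% of the bins marked in AG. They fell into 563 of 2682 windows (21%). The 532 members (0.199% of all bins) came from 70 windows (2.61% of windows) and made up 43.9% of the AG-only bins. The other 681 AG-only bins, called scattered here, lay in windows holding 1 to 3. Members spanned 5.32 Mb, and their covered bases were 10.5% and 8.14% of all autosomal covered bases in AG replicates 1 and 2. These shares follow from the rule and show only how much of the AG signal the members hold.

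The edges of the rule cut through a continuous range. The 5 members with the least coverage had 472 to 490 bases in their lower AG library, and the 5 best covered bins that missed the mark without a GG base had 427 to 448. There were 38 windows holding 3 AG-only bins and 23 holding 4. Bins in the windows of 3 had median coverage of 2081 and 1921 bases in AG replicates 1 and 2, and those in the windows of 4 had 2019 and 1999. Leaving out AG replicate 1 raised the members to 1943 and leaving out AG replicate 2 raised them to 936, since a bin then had to be marked in a single AG library.

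**Figure D1:**
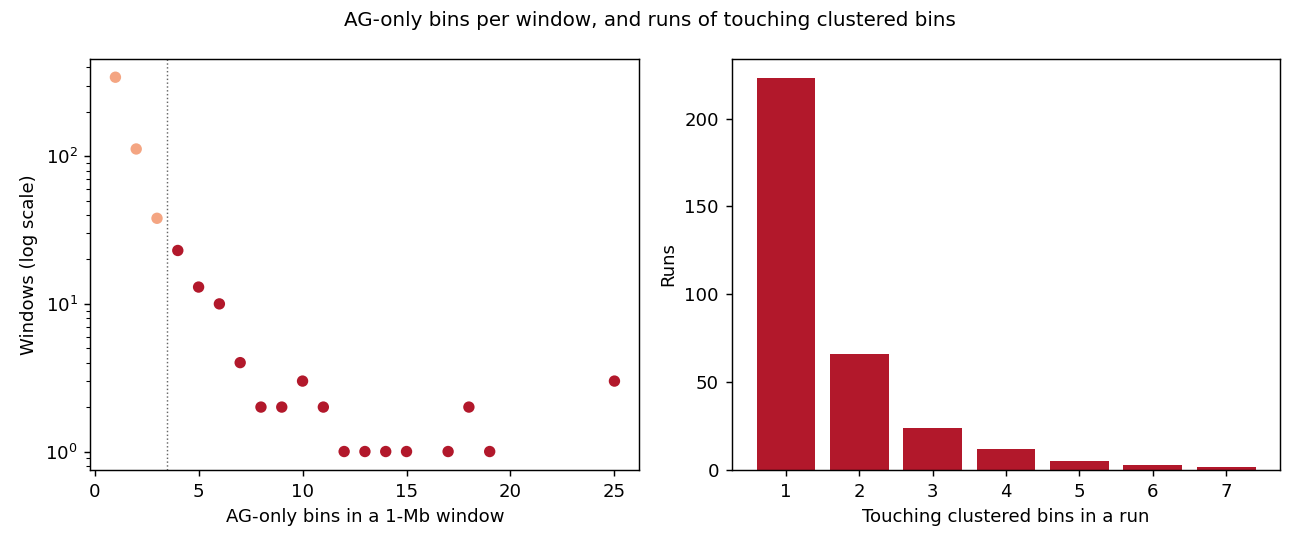
Left, number of 1-Mb windows (log scale) by the number of AG-only bins they hold; points right of the dotted line are the 70 windows that supply the members. Right, number of runs by the count of touching members in the run. Of the 563 windows with any AG-only bin 343 held 1, 3 windows held 25, and 223 members stood without a touching member.

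Coverage of members was moderate and nearly equal in sum between the AG replicates. A member held a median of 2218 covered bases in AG replicate 1 (range 484 to 8747) and 2166 in AG replicate 2 (range 472 to 9066). The middle 50% of members lay between 1524 and 3227 bases in replicate 1 and between 1358 and 3287 bases in replicate 2. Replicate 1 had more bases than replicate 2 in 280 of 532 members, and the summed coverage of replicate 2 was 0.994 times that of replicate 1. Scattered AG-only bins had medians of 1860 and 1838 bases, and the 2373 bins marked in all 4 libraries had 2345 and 2412 AG bases. The AG level of members was therefore between those of both other classes, and the ranges of the classes overlapped over most of their width.

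**Figure D2:**
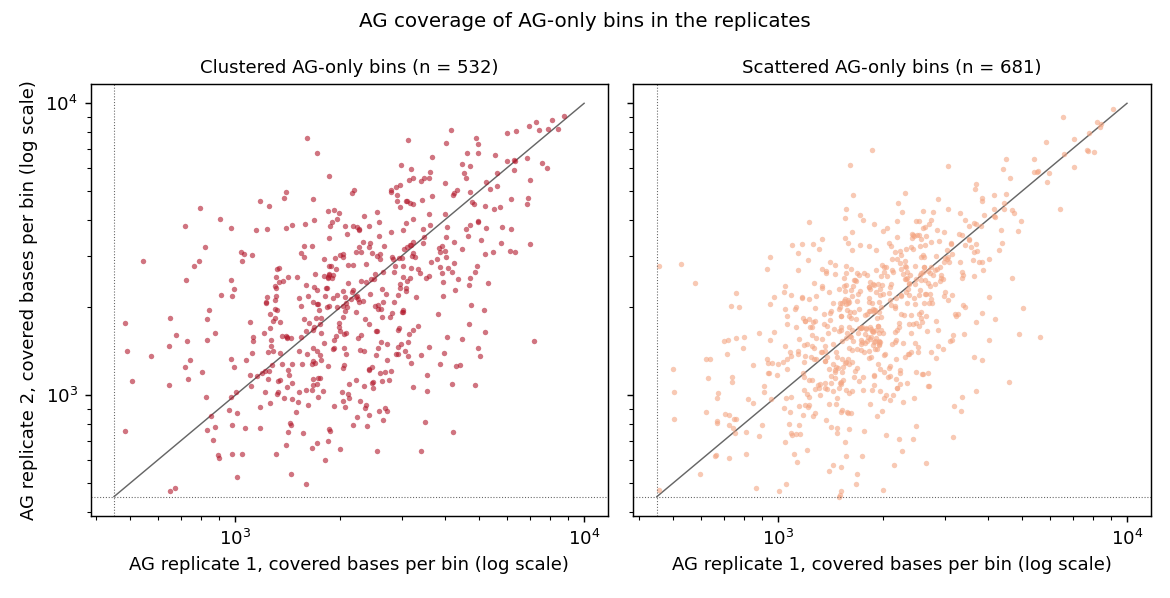
Covered bases per bin in AG replicate 1 (horizontal) and replicate 2 (vertical), both on log scales, for the 532 clustered and 681 scattered AG-only bins; the line marks equality and dotted lines the 450-base mark. Points fall on both sides of the line, with the widest scatter at low coverage.

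Window by window, the replicates were less alike than in the sum. Members had more bases in AG replicate 1 in 37 windows and in replicate 2 in 33. The ratio of replicate 2 to replicate 1 ran from 0.391, in a window of 6 members on chromosome 11 starting at 130000001, to 2.23, in a window of 4 members on chromosome 20 starting at 70000001. Which replicate was higher thus varied along the genome.

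A few windows held a large share of the members. The 10 fullest windows held 189 members, 35.5% of all members, out of 1213 AG-only bins. Part of this share follows from the choice. The windows were ranked by member count, and the rule leaves out windows holding fewer than 4 AG-only bins. The fullest 3 windows tied at 25 members each. On chromosome 3 from 184000001 to 185000000, near the end of the chromosome, members held 53495 covered bases in AG replicate 1 and 53191 in replicate 2. They were spread over 920 kb in 18 separate runs, none longer than 3 bins. Only 6 other bins of this window were marked in both AG libraries, and GG covered 4.15% and 4.13% of the window in replicates 1 and 2.

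On chromosome 8 from 1000001 to 2000000 the 25 members held 64029 and 48134 bases in AG replicates 1 and 2, in 17 runs over 910 kb. The window before it, from the first base of the chromosome to 1000000, held another 18 members with 50457 and 56630 bases. These neighbouring windows gave 43 members within 2 Mb of the chromosome start, the most of any autosome end. GG did mark parts of them. In the second window 10 bins were marked in both GG libraries, of which 4 were also marked in both AG libraries.

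The third window with 25 members, on chromosome 13 from 88000001 to 89000000, lay 19.9 Mb from the chromosome end and had another form. Its members held 87421 and 79988 bases in AG replicates 1 and 2, packed into 420 kb in 8 runs of up to 6 bins. A further 16 bins of this window were marked in both AG libraries and had GG bases. Of these, 4 lay between members and 12 followed the last member. In 13 of the 16 bins only GG replicate 1 had bases. GG replicate 1 covered 96482 bases of the window and GG replicate 2 covered 14330. Of the 41 AG-marked bins of this window, 25 thus had no GG base, 13 had bases in GG replicate 1 only and 3 in both GG libraries.

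Chromosome 11 from 36000001 to 37000000 showed the same asymmetry between the GG libraries. Its 17 members held 64389 and 66081 bases in AG replicates 1 and 2 and shared the window with 30 other bins marked in both AG libraries. GG bases in 18 of those 30 bins came from GG replicate 1 only, and none came from replicate 2 only. GG replicates 1 and 2 covered 173652 and 52553 bases of the window. Without GG replicate 1 this window would hold 35 members instead of 17, and the window on chromosome 13 would hold 38 instead of 25. Without GG replicate 2 the counts would stay at 17 and 25. In 3 of the 70 windows the covered bases of 1 GG library exceeded 3 times those of the other. These were the windows on chromosomes 13 and 11 and, named after its values were seen, the window on chromosome 18 from 43000001 to 44000000.

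The remaining full windows differed in form. Chromosome 8 from 13000001 to 14000000 held 19 members within 350 kb (80698 and 76082 bases), beside 14 bins marked in all 4 libraries. Chromosome 1 from 2000001 to 3000000 held 18 members (42774 and 46438 bases) that started where a GG-covered block ended. In that window 11 bins were marked in all 4 libraries and GG covered 18.9% and 20.5%. Chromosome 7 from 60000001 to 61000000 held 15 members, with 44359 bases in AG replicate 1 and 73761 in replicate 2, the most unequal of the 10 fullest windows. The first windows of chromosome 9 and chromosome 18 held 14 and 13 members. Replicate 1 was higher in both, with 41122 against 33063 bases on chromosome 9 and 46214 against 32397 on chromosome 18.

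**Figure D3:**
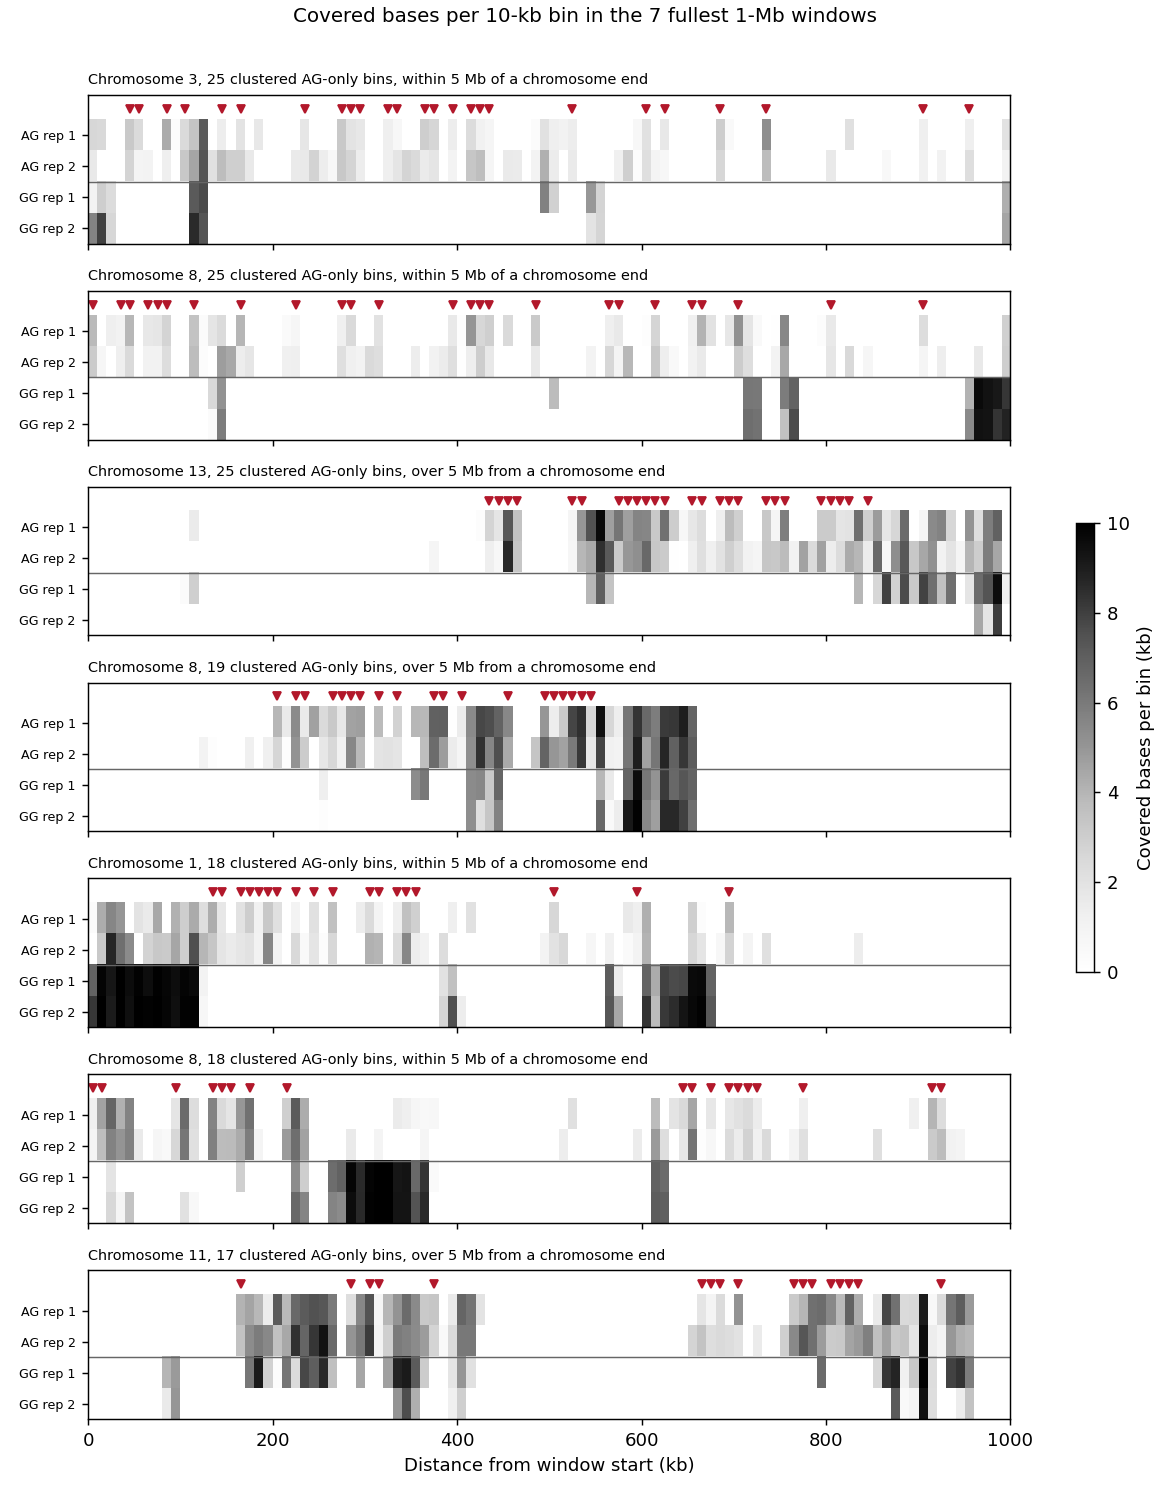
Covered bases per 10-kb bin (grey scale, 0 to 10 kb) in each of the 4 libraries across the 7 fullest 1-Mb windows, by distance from the window start in kb; red triangles mark the members. Members are spread thinly over the windows of chromosome 3 and the start of chromosome 8, and stand in dense AG blocks on chromosomes 13 and 11, where GG replicate 1 covers bins that replicate 2 leaves bare.

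Members often stood alone, and long unbroken stretches were few. They formed 335 runs of touching bins, of which 223 were a single bin and 46 had 3 or more. Of the members 58.1% touched another member. Both longest runs had 7 bins. The one on chromosome 18 from 69480001 to 69550000 held 21548 and 27758 bases in AG replicates 1 and 2, or 30.8% and 39.7% of its length. The one on chromosome 19 from 5210001 to 5280000 held 15237 and 26903 bases, or 21.8% and 38.4%. The nearest GG base was 34616 bp from the run on chromosome 18 and 42809 bp from the run on chromosome 19.

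The next in length were 3 runs of 6 bins. The first, on chromosome 8, spanned 13490001 to 13550000, the second, on chromosome 13, spanned 88570001 to 88630000, and the last, near the end of chromosome 17, spanned 95330001 to 95390000. The runs on chromosomes 8 and 13 were covered to 47.2% and 52.6% in AG replicate 1 and to 53.6% and 43.9% in replicate 2. The run on chromosome 17, 166.1 kb from the chromosome end, was covered to 24.8% and 25.6%. Among these 3 runs the one near a chromosome end was the sparsest in both AG libraries.

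A run of 5 bins on chromosome 17 from 45670001 to 45720000 stood apart from any GG coverage. From first to last its bins held 1903, 8747, 5997, 3193 and 2249 bases in AG replicate 1. In AG replicate 2 they held 2581, 9066, 7912, 5978 and 2137. Both replicates therefore peaked in the second bin and fell toward both edges. The nearest GG base lay 1617 kb from the last bin, and neither GG library had a base in the whole window. Of the bases covered in either AG library here, 65.3% were covered in both. The second bin had the highest lower-library coverage of all members, 8747 and 9066 bases.

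The next best covered members lay on other chromosomes. The bin on chromosome 8 from 13530001 to 13540000 had 8405 and 8179 bases in AG replicates 1 and 2, with a GG base 11799 bp away. The bin on chromosome 3 from 50840001 to 50850000 had 8104 and 8775, and the bin on chromosome 17 from 93630001 to 93640000 had 7856 and 8167. In the fifth, on chromosome 11 from 36300001 to 36310000, 7437 and 8101 bases were covered, and GG bases began 1254 bp away. All 5 bins held at least 7437 of 10000 bases in both AG libraries, against member medians of 2218 and 2166. Their place above the medians follows from their choice by lower-library coverage.

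Members lay mostly near chromosome ends. Of the 532 members, 310 (58.3%, 95% exact Clopper-Pearson interval 54.0% to 62.5%, counting error only) were within 5 Mb of an autosome end, a zone that held 7.49% of all bins. Neighbouring bins are not independent, so the interval is too narrow. Of the scattered AG-only bins 23.1% and of the bins marked in all 4 libraries 23.3% lay in that zone. Within the windows that held members, 61.8% of the 233 bins marked in all 4 libraries lay there. So did 3730 of all 6941 bins of these windows, so nearness to the ends was shared by the windows and not particular to the members. AG and GG libraries both marked the zone more densely than the interior. There, 5.41% of bins were marked in both AG libraries and 26.8% in both GG libraries, against 1.16% and 8.91% in the interior. Bins without a GG base made up 43.1% of the AG-marked bins in the zone and 26.0% in the interior. A window rule takes more bins wherever AG-only bins are dense: 66.4% of AG-only bins were members in the zone and 29.8% in the interior.

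The share of bins that were members fell over the outer 5 Mb. It was 2.94% in the first Mb, then 2.20%, 1.38%, 0.900% and 0.325% in the following Mb steps. From 5 to 10 Mb it had no steady direction, at 0.225%, 0.300%, 0.150%, 0.575% and 0.325% per Mb step. Beyond 10 Mb it was 0.0699%. Bins marked in both AG libraries fell from 8.78% in the first Mb to 2.50% in the fifth. Bins marked in both GG libraries had another profile, at 24.5% in the first Mb, 31.0% in the third and 21.5% in the fifth. Members were thus densest in the outermost Mb, as were bins marked in both AG libraries. GG marking there was below its maximum but above the 8.15% found beyond 10 Mb. The rule asks for 0 GG bases, so these profiles do not show a link between members and GG marking.

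**Figure D4:**
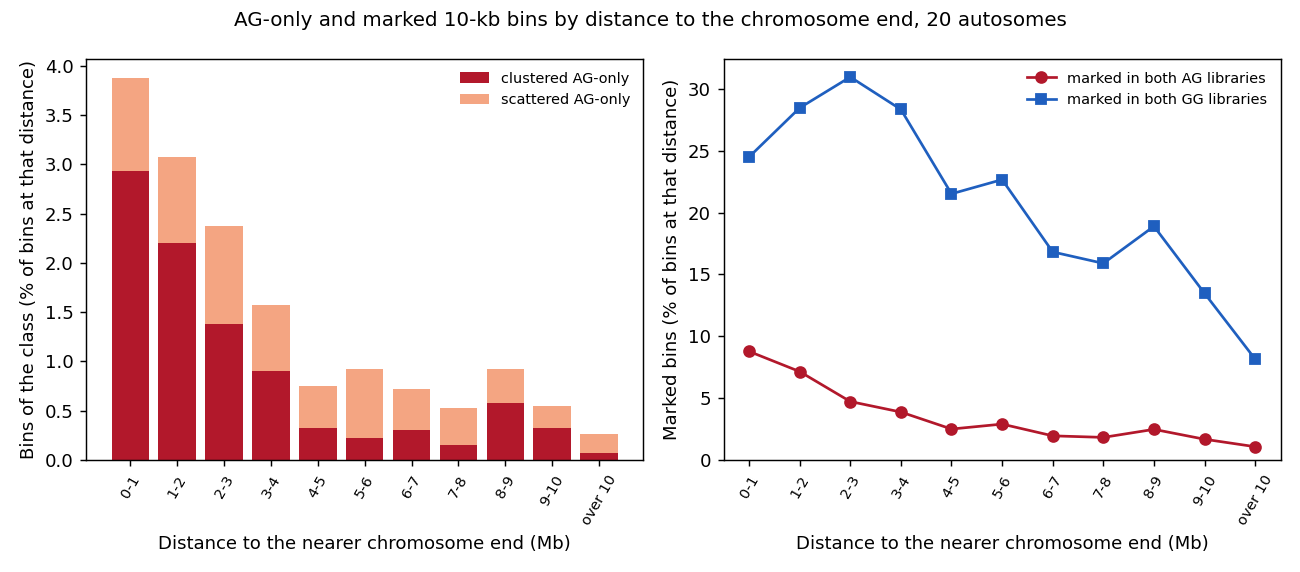
Left, share of 10-kb bins that are clustered or scattered AG-only bins, by distance to the nearer autosome end in Mb. Right, share of bins marked in both libraries of each group at the same distances. AG-only bins and AG marking are highest in the first Mb, and GG marking peaks in the third.

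Autosome ends differed in how many members they held. Of 40 ends, 25 had members within 5 Mb. The start of chromosome 8 had 43, the end of chromosome 17 had 31, the start of chromosome 1 had 27 and the end of chromosome 3 had 25. Chromosomes 4, 7 and 12 had none at either end. On chromosome 17 the start had none while the end held 31 members in 3 windows, with 80540 and 80514 bases in AG replicates 1 and 2. On chromosome 18 both ends were rich, with 13 members at the start and 20 at the end.

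By whole chromosome, the share of bins that were members ran from 0.0195% on chromosome 2 to 0.556% on chromosome 18. Chromosome 8 had the most members, 73, which is 13.7% of all members on 5.39% of the bins. Chromosome 17 had 50 members on 3.57% of the bins and chromosome 20 had 36 on 2.80%. Chromosomes 2, 4 and 12 had 4 members each, in a single window, on 7.66%, 6.46% and 4.69% of the bins. These shares have no replicate spread of their own, since membership needs both AG libraries.

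The windows of the members were not poor in GG coverage. GG replicates 1 and 2 covered 12.7% and 12.6% of the member windows, against 7.67% and 7.09% of the other windows. Of the 6941 bins in member windows, 17.6% were marked in both GG libraries, against 10.1% elsewhere. Position differed too, since 3730 of these 6941 bins lay in the outer 5 Mb. In that zone 26.8% of all bins were marked in both GG libraries, against 8.91% in the interior. Member windows and other windows were not compared at equal distance to a chromosome end. Of the 847 bins in member windows that were marked in both AG libraries, 532 were the members, 233 were marked in both GG libraries and 82 had some GG bases. For those 315 bins with GG bases, both GG libraries had bases in 239, GG replicate 1 alone in 59 and GG replicate 2 alone in 17. AG-only and shared bins were thus neighbours within the same megabase. At 4222 bins, 60.8% of those in member windows, no library had a base, against 84.2% elsewhere.

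Another 570 bins of these windows had AG bases without GG bases but missed the mark in at least 1 AG library. In 405 of them the bases came from AG replicate 2 only, in 128 from replicate 1 only and in 37 from both. AG replicate 2 thus added more unshared bins around the members, and across the autosomes it also had more marked bins, 8338 against 5482.

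On either side of a member, the touching bin was another member in 37.1% of 1063 cases and had no base in any library in 30.5%. In 23.4% it had AG bases and no GG base but was not marked in both AG libraries. A bin marked in all 4 libraries touched a member in 2.73% of cases. For scattered AG-only bins the touching bin was blank in 62.1% of 1359 cases and another scattered AG-only bin in 9.86%. Part of this contrast follows from the rule, which takes members from windows with more AG-only bins. The nearest GG base lay a median of 46.0 kb from a member, from 39 bp up to 1657 kb. It was within 10 kb for 87 members (16.4%) and beyond 100 kb for 118 (22.2%). Members in the outer 5 Mb lay a median of 55.5 kb from GG, and those of the interior 31.0 kb. For scattered bins the median was 58.8 kb, with 37.4% beyond 100 kb.

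Within members, the replicates covered partly different bases. This measure, the bases covered in both AG libraries as a share of those covered in either, was not used by the rule. Its median was 36.1% in members, 47.1% in scattered AG-only bins and 50.9% in bins marked in all 4 libraries. An overlap of 50% or more was reached by 133 members (25%) and by 308 scattered bins (45.2%). In 49 members the replicates shared no base at all. With 1 pair of AG libraries there is no spread between pairs, and these differences were not tested.

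The lower overlap of members recurred at each level of coverage in the lower AG library. Where the lower AG library had 450 to under 1000 bases, the median overlap was 25.5% in members and 36.9% in scattered bins. From 1000 to under 2000 bases it was 32.6% and 42.5%, and from 2000 to under 4000 bases it was 40.0% and 55.9%. Above that it was 57.1% in 45 members and 64.9% in 32 scattered bins. These classes did not hold the bases covered in either library equal, and the overlap is a share of those bases. Their median was larger in members in each class, from 1941 against 1613 in the lowest to 7716 against 7516 in the highest. By position, the medians of members were 36.2% in the outer 5 Mb and 35.9% in the interior, while scattered bins had 39.8% and 48.6%. Bins marked in all 4 libraries that lay in member windows had 44.5%. For each window the overlap was taken from the summed bases of its members and not as a median over bins. It was lowest, 10.8%, for the 4 members on chromosome 20 from 1000001 to 2000000. The highest value, 65.8%, belonged to the 10 members on chromosome 17 from 93000001 to 94000000.

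**Figure D5:**
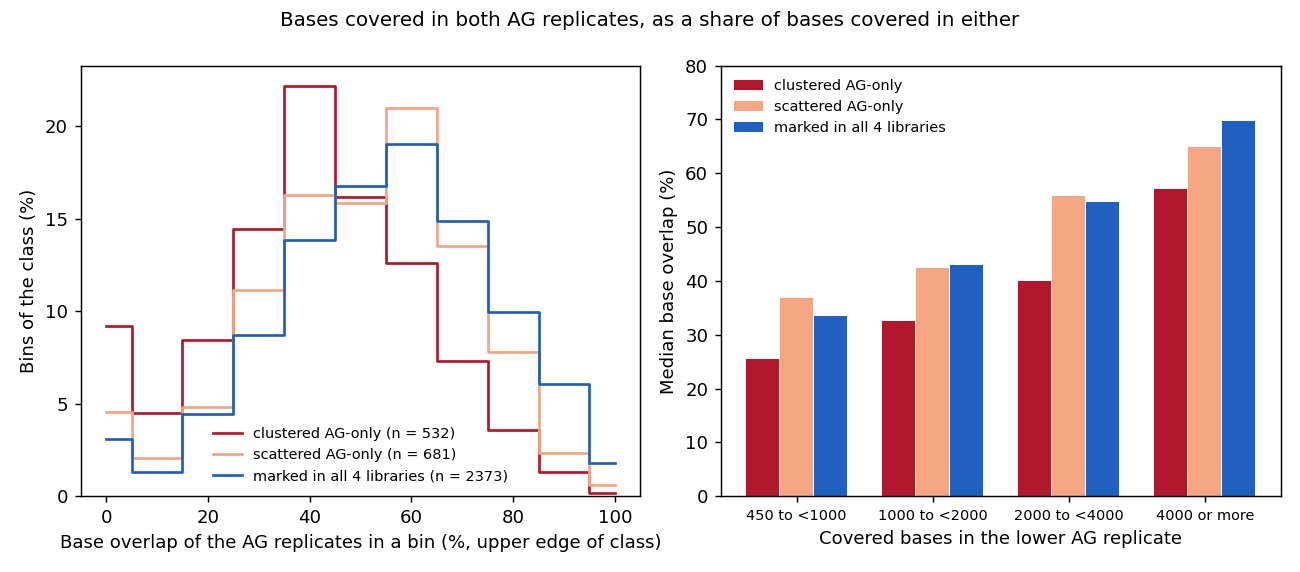
Left, distribution over bins of the base overlap between AG replicates, in percent (0 means no common base). Right, median overlap by the covered bases of the lower AG replicate. In each of the 4 coverage classes the clustered AG-only bins lie below the scattered ones and below the bins marked in all 4 libraries.

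Members were made of many short intervals. They held 8.91 intervals per bin in AG replicate 1, with a median length of 201 bp, and 6.88 in AG replicate 2, with a median of 265 bp. Scattered bins held 6.81 and 5.19 intervals per bin, with medians of 200 and 264 bp. Intervals of members in replicate 1 met an interval of replicate 2 in 57.3% of 4740 cases, and those of replicate 2 met one of replicate 1 in 64.3% of 3658. For scattered bins these shares were 64.7% and 71.5%. Intervals of at least 1000 bp held 10.3% and 19.5% of the members' interval bases in replicates 1 and 2. In scattered bins they held 15.2% and 27.9%, and in bins marked in all 4 libraries 26.5% and 37.3%. The median lengths of members and scattered bins differed by 1 bp in each library.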

How the data were processed

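H3K27me3 CUT&RUN libraries, 2 from AG and 2 from GG morulae, were analysed, with groups and replicate numbers from the sample titles, which name ChIP-seq where the series title and the extraction protocol name CUT&RUN. Per the submitters' processing notes, the authors worked on rheMac8 with SICER 1.1, deepTools 3.3.1, Trim Galore, SAMtools and Bowtie2. Versions of the last 3 tools are not stated there. Per the deposited file names, SICER ran per library with a window and gap of 200 bp in AG and of 300 and 1200 bp in GG, at an E value of 0.001, with tags filtered to islands. The deposited files list the start and end of intervals, with no count or score, and how tags were joined into them is not stated. The depth per library is therefore unknown.

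Covered bases were summed in 10-kb bins with Python 3.11.15, numpy 2.4.6, pandas 2.3.3 and scipy 1.17.1, and plotted with matplotlib 3.10.9. Coordinates are 1-based, and a chromosome's end is the highest interval end in any library. The mark of 450 bases is 3 tag lengths of 150 bp. No pair of libraries had more than 66 identical intervals. The named regions are the 10 fullest windows, the longest runs of touching bins and the 5 members with the highest lower-library coverage. Members, rule and comparisons were chosen with earlier results of these data known, and no test was made. The binning and overlap steps were tested on simulated data. Alternatives changed the mark, bin size, window start, window minimum, GG coverage allowed, interval clustering and the libraries used. Genes, promoters and sequence were planned only for an annotation of rheMac8 and were not analysed here.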

Additional observations from a re-analysis of the deposited data

Results flagged for a closer look

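On the autosomes 1213 of 267367 bins (0.454%) were AG-only. By the same bin rule, AG-only bins also appeared on the sex chromosomes, which the rule leaves out. They were 10 of 14914 bins on X and 6 of 1125 bins on Y. In AG replicate 1 they held 26124 bases on X and 14112 on Y, and in AG replicate 2 they held 19728 and 13139. They are given because they carry AG signal outside the autosomes. Their 0 bases in both GG libraries follow from the rule. On Y they also follow from the design, since a nuclear genome from the mother only has no Y chromosome. All 6 bins marked in both AG libraries on Y were AG-only, against 10 of 23 on X. On X, 8 of the 10 lay within 2 Mb of a chromosome end. Of the 10, 6 lay in 1 window that would meet the minimum of 4, between 80001 and 760000. No window on Y did.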

How the results depend on the processing

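No paired analysis was possible because no result comes from a test and no label pairs an AG with a GG library. The 532 members became 352 with 20-kb bins, and the other alternatives with all 4 libraries gave 400 to 749. Leaving out 1 library gave 587 to 1943. The share of members in the outer 5 Mb, 58.3%, was 49.7% with 5-kb bins, 67.3% with 20-kb bins and 63.8% without GG in neighbouring bins. It was 49.6% to 56.7% without 1 library, 38.7% for an outer zone of 2 Mb and 70.1% for 10 Mb, both zones chosen after seeing the data. These zones also hold other shares of all bins. Of the 267367 bins, 4020 lay in the first Mb from an autosome end, 4000 in the second and 227347 beyond 10 Mb. The median base overlap of the AG replicates, 36.1%, was 44.3% with 5-kb bins, 30.8% with 20-kb bins and 36.6% to 36.9% without 1 GG library; it has no value without an AG library. It was 49.8% with intervals extended by 150 bp on each side, an alternative chosen after seeing the data. The cause of these shifts was not tested, apart from the rule itself, which asks for fewer libraries when 1 is left out. Scattered bins had the higher overlap under the main rule and 12 alternatives, by 5.70 to 12.4 percentage points. Shifting windows by 500 kb kept 461 of the 532 members. Unknown depth limits every zero in GG.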
